A study of Mus musculus with 4 samples.

Results

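The SLAM (signalling lymphocytic activation molecule) family is a set of surface receptors of blood cells, and the 8 genes described here are 7 of these receptors (Slamf1, Cd48, Ly9, Cd244, Cd84, Slamf6 and Slamf7) and their cytoplasmic adaptor, Sh2d1a. They were chosen by gene symbol. The symbols were carried by 9 of the 14226 rows of the deposited expression table, because Slamf6 had 2 rows. Splenocytes, all cells washed out of a spleen, came from C57BL/6N mice and were profiled by RNA sequencing. Wild type had 2 libraries, and 2 more came from mice transgenic for vcS5, labelled +/T for that transgene. Peripheral T cell lymphoma and a STAT5 mutation that activates this transcription factor are the subjects of the series title, so the comparison asks how SLAM family expression in the spleen differs with this transgene. The promoter that drives the transgene, and the age and sex of the mice, are not given in the sources used here, and the deposited table calls the transgenic samples line1.

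SLAM receptors sit on T, B and natural killer cells and on many myeloid cells, and they bind partners on neighbouring cells. Slamf1, Ly9, Cd84, Slamf6 and Slamf7 products bind their own kind, whereas CD244 binds CD48, which also binds CD2. Most of these receptors carry, in the cytoplasmic tail, immunoreceptor tyrosine-based switch motifs (a threonine, any residue, a tyrosine, any pair of residues, then a valine or isoleucine). The adaptor SAP, the product of Sh2d1a, docks on these motifs and brings in the kinase FYN. SAP is needed for the development of natural killer T cells and for the contact of T helper cells with B cells in germinal centres.

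The receptor genes formed 1 cluster on chromosome 1 of mm10, spanning 394 kb (chr1:171559189-171953159), with Cd244, Cd48, Slamf1, Cd84 and Slamf6 on the plus strand and Ly9 and Slamf7 on the minus strand. Sh2d1a lies on chromosome X (chrX:42502453-42523697, plus strand). The coding sequences of the longest GENCODE vM21 coding transcripts were searched for codons of the switch motif. Cd244 held 4 matches, Slamf1, Slamf6, Cd84 and Ly9 held 2 each, Slamf7 and Cd48 held 1 each, and Sh2d1a held 0. Among 21533 coding genes, 7.95% held at least 1 match and 0.608% held 2 or more. In every receptor except Cd48 the first match began at codon 263 or later. The Cd48 match lay at codons 105 to 110 of 240, and CD48 is a protein held to the membrane by a lipid anchor, with no cytoplasmic tail. A match is a string of codons and does not show that the adaptor binds there.

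Matches to the motif on which SAP docks are shown, with docking itself not tested, for 4 receptors. They are Cd244, the receptor with the most matches and the single receptor past the test described below, and Slamf1, Slamf6 and Cd84, the receptors with 2 matches whose mean FPKM was lower in vcS5. Capitals mark the codons of threonine, tyrosine, and valine or isoleucine, and all are on the plus strand of mm10. The fourth match of Cd244 crosses an exon junction and is given without coordinates.
Cd244 codons 264 to 269 (chr1:171577838-171577855): ACAataTATgaatatGTC
Cd244 codons 323 to 328 (chr1:171579144-171579161): ACCatgTACtctatgATA
Cd244 codons 342 to 347 (chr1:171580788-171580805): ACAgtaTATtcagtaGTC
Cd244 codons 367 to 372: ACCgtgTACgaggagGTT
Slamf1 codons 286 to 291 (chr1:171792339-171792356): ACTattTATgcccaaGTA
Slamf1 codons 333 to 338 (chr1:171799588-171799605): ACAgttTATgccagtGTG
Slamf6 codons 293 to 298 (chr1:171939437-171939454): ACTgtgTATgcacaaGTC
Slamf6 codons 317 to 322 (chr1:171941664-171941681): ACAattTACtccataGTT
Cd84 codons 263 to 268 (chr1:171884605-171884622): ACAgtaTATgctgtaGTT
Cd84 codons 298 to 303 (chr1:171885601-171885618): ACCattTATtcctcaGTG

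Values are FPKM, fragments scaled to transcript length and library size, so levels of different genes can be set side by side. FPKM over all rows had medians of 12.2 to 12.6 in the 4 libraries. Judged from the steps of low values, 1 read of wild-type replicate 1 was worth 0.831 to 0.900 of a read of the other 3 libraries. Absolute depth is unknown from the values, so no counting interval is given. Markers of T, B, natural killer, plasma, myeloid and erythroid cells were found in each library, and no listed gene that was in the table was at 0. A spleen library is a mixture, in which fewer cells of a type and less RNA per cell cannot be told apart. The labels call the 2 samples of a group biological replicates, and differences are changes of log2(FPKM + 1), vcS5 minus wild type, with the standard error (SE) from limma.

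In wild-type spleen the SLAM family covered a wide range of levels. Cd48 was the most abundant, with 126 and 137 FPKM, above 95.6% of all rows by its mean over the 4 libraries. Cd84 (76.1 and 77.7 FPKM), Slamf6 (75.5 and 75.2 FPKM) and Ly9 (64.0 and 80.8 FPKM) followed, and these 3 did not differ beyond the spread of Ly9. Slamf7 had 32.8 and 30.6 FPKM. Sh2d1a (16.2 and 22.1 FPKM) and Slamf1 (16.4 and 20.0 FPKM) overlapped, and Cd244 was the lowest of the genes, with 6.90 and 5.85 FPKM. In vcS5 the order of means was Cd48, Ly9, Cd84, Slamf6, Sh2d1a, Slamf7, Slamf1 and Cd244, so that Sh2d1a moved from the sixth to the fifth place. Slamf6 overlapped neither Ly9 nor Cd84 in vcS5.

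**Figure D1:**
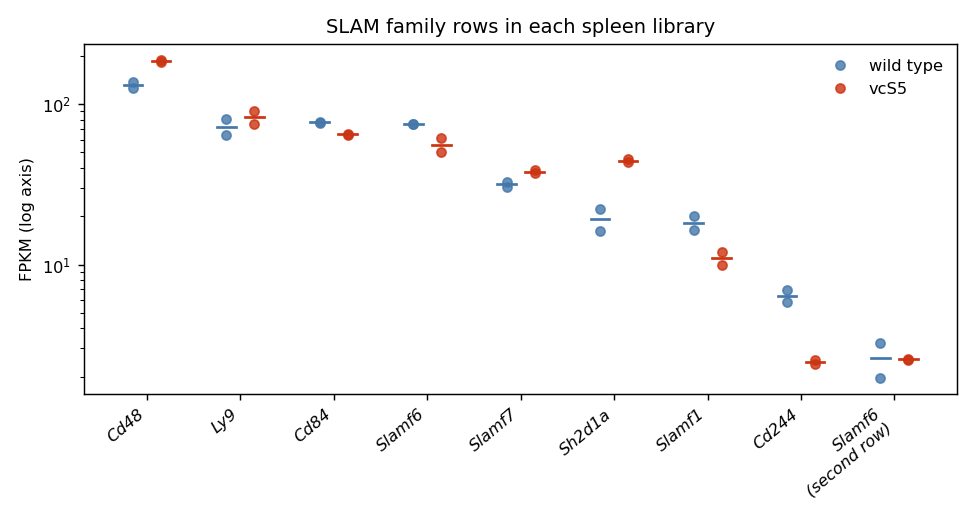
FPKM (log axis) of the 9 SLAM family rows in each of the 4 libraries; points are libraries and short lines are group means of 2. Sh2d1a lies higher and Cd244 and Slamf1 lie lower in both vcS5 libraries than in both wild-type libraries.

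The adaptor rose and the CD48 receptor Cd244 fell in vcS5, and no other family member passed the test. Of the 9 rows, 1 was higher and 1 was lower at an adjusted p under 0.05 (limma, Benjamini-Hochberg over all rows), where 4.59% of all rows were called higher and 4.13% lower. The median change over the 8 genes was -0.03, beside 0.001 over all rows. Groups did not overlap for 7 of the 9 rows, 3 higher and 4 lower in vcS5, against 54.4% of all rows. At an unadjusted p under 0.05 there were 5 of the 9 rows, beside 25.3% of all rows. In the authors' deposited table, with its own test, 2 rows were higher and 2 lower at a q under 0.05, where 5.31% of all rows were higher and 6.14% lower.

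Sh2d1a, the gene of the adaptor SAP, had 16.2 and 22.1 FPKM in the wild-type pair and 43.4 and 45.5 FPKM in the vcS5 pair. Both vcS5 libraries were above both wild-type libraries, and the wild-type pair was spread more widely than the vcS5 pair. The mean went from 19.1 ± 4.16 to 44.5 ± 1.45 FPKM (SD, n = 2 each), a 2.32-fold rise. The log2 change was 1.19 (SE 0.184, 95% interval 0.72 to 1.66), and limma gave an adjusted p of 0.0249. The q in the authors' deposited table was 0.00262. The call rests on all 4 libraries, since the adjusted p rose to 0.101 or 0.0581 when wild-type replicate 1 or 2 was left out and to 0.124 or 0.152 when vcS5 replicate 1 or 2 was, with log2 changes from 0.98 to 1.40. In GENCODE vM21, 1465 of the 5505 exonic bases of Sh2d1a also lie in exons of Tenm1 on the other strand, and reads of this unstranded kit do not tell them apart.

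Cd244, the receptor 2B4 of natural killer cells and some T and myeloid cells, had 6.90 and 5.85 FPKM in the wild-type pair and 2.42 and 2.54 FPKM in the vcS5 pair. The vcS5 values lay close together, below both wild-type values. The means were 6.38 ± 0.746 FPKM (SD, n = 2) for wild type and 2.48 ± 0.0859 FPKM (SD, n = 2) for vcS5, 2.57-fold apart. The log2 change was -1.08 (SE 0.170, 95% interval -1.51 to -0.65), with an adjusted p of 0.0260 by limma, and the q in the authors' deposited table was 9.95e-04. This call too was lost whichever library was left out, with an adjusted p of 0.131 or 0.0971 for wild-type replicate 1 or 2 and of 0.122 or 0.140 for vcS5 replicate 1 or 2. The log2 change over these was -1.18 to -0.98. Because Cd244 is a low row, its change on this scale depends on the pseudocount, and it was -1.32 with 0.1 added and -0.60 with 5 added in place of 1. Cd244 shared no exonic base with another gene in the annotation and no stretch of 50 bases, the read length, with any other gene.

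Cd48, which encodes the partner that CD244 binds, had 126 and 137 FPKM in the wild-type pair and 188 and 184 FPKM in the vcS5 pair. All vcS5 values were above all wild-type values, yet the change did not pass. It was 0.50 on the log2 scale (SE 0.141, 95% interval 0.14 to 0.86), and limma gave an adjusted p of 0.103. In the authors' deposited table Cd48 had a q of 0.0421. Within a library, the FPKM of Cd48 was 18.3 and 23.4 times that of Cd244 in wild type and 77.9 and 72.3 times in vcS5. This partner-to-receptor ratio did not overlap between groups, and it carries the Cd244 difference already given.

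Slamf1, the receptor CD150, had 16.4 and 20.0 FPKM in the wild-type pair and 11.9 and 9.88 FPKM in the vcS5 pair. Both vcS5 libraries were lower, and the log2 change of -0.69 (SE 0.174, 95% interval -1.13 to -0.24) did not pass, with an adjusted p of 0.0798 by limma. In the authors' deposited table its q was 0.0198. Some 2.38% of the 50-base stretches of Slamf1 transcripts also occur in transcripts of other genes, Dnajb14 first among them, and in Cd84 it is 1.71%.

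Slamf6, the receptor Ly108, had a main row with 75.5 and 75.2 FPKM in the wild-type pair and 61.3 and 50.6 FPKM in the vcS5 pair. The wild-type pair was nearly equal and both vcS5 values were lower, with a log2 change of -0.43 (SE 0.153, 95% interval -0.82 to -0.04, adjusted p = 0.165 by limma). The second Slamf6 row, at the same locus, had 3.25 and 1.96 FPKM in the wild-type pair and 2.56 and 2.57 FPKM in the vcS5 pair, and its groups overlapped (a log2 change of 0.01 with an SE of 0.237, adjusted p = 0.991 by limma). Another row without a symbol covered the same locus, with 12.2 and 14.1 FPKM in the wild-type pair and 8.44 and 8.73 FPKM in the vcS5 pair. That unannotated row was lower in both vcS5 libraries and did not pass (a log2 change of -0.56 with an SE of 0.148, adjusted p = 0.0887 by limma). With the 2 named rows summed the log2 change of Slamf6 was -0.41 (adjusted p = 0.174 by limma).

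Cd84, a receptor of B cells, platelets and myeloid cells that also acts in T helper contacts, had 76.1 and 77.7 FPKM in the wild-type pair and 65.3 and 63.9 FPKM in the vcS5 pair. Replicates agreed closely and the groups did not overlap, with a log2 change of -0.25 (SE 0.129, 95% interval -0.58 to 0.08, adjusted p = 0.309 by limma). Slamf7, the receptor CRACC of natural killer and plasma cells, had 32.8 and 30.6 FPKM in the wild-type pair and 36.9 and 38.9 FPKM in the vcS5 pair. Its groups did not overlap either, and its log2 change was 0.25 (SE 0.132, 95% interval -0.08 to 0.59, adjusted p = 0.310 by limma). In Slamf7, 7.14% of the 50-base stretches also occur in transcripts of Gm37787, and 423 of the 4577 exonic bases of Slamf7 lie in exons of that gene on the other strand. Ly9, the receptor CD229 of T and B cells, had 64.0 and 80.8 FPKM in the wild-type pair and 75.3 and 90.0 FPKM in the vcS5 pair. Ly9 was the single receptor gene whose main row overlapped between groups, with a log2 change of 0.19 (SE 0.183, 95% interval -0.27 to 0.66, adjusted p = 0.589 by limma). The intervals of these 3 genes include 0, and none of them reaches a change of 1 in either direction.

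**Figure D2:**
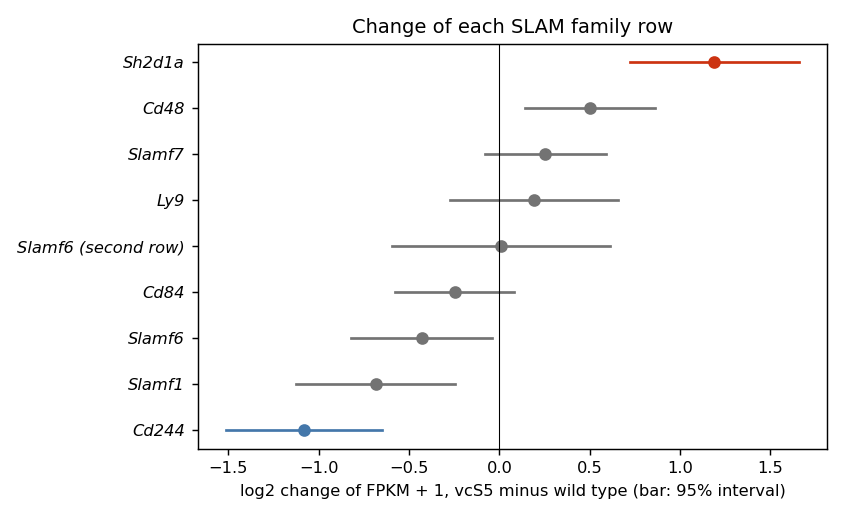
Log2 change of each SLAM family row, vcS5 minus wild type, with its 95% interval from limma over 4 libraries; red and blue mark rows called higher and lower at an adjusted p under 0.05. Sh2d1a (1.19) and Cd244 (-1.08) lie at opposite ends and the remaining 7 rows between -0.69 and 0.50.

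The summed FPKM of the 7 receptors differed little between groups while its make-up differed. The sum over the main rows was 398 and 427 FPKM in the wild-type pair and 442 and 439 FPKM in the vcS5 pair. Cd48 made up 31.7% and 32.0% of it in the wild-type pair and 42.7% and 41.8% in the vcS5 pair. The share of Slamf6 was 19.0% and 17.6% in the wild-type pair and 13.9% and 11.5% in the vcS5 pair, and that of Cd84 was 19.1% and 18.2% against 14.8% and 14.5%. Ly9 took 16.1% to 18.9% in wild type and 17.1% to 20.5% in vcS5, overlapping ranges. Cd244 made up 1.73% and 1.37% of the sum in the wild-type pair and 0.548% and 0.578% in the vcS5 pair. Slamf7 took 8.24% and 7.16% in the wild-type pair and 8.37% and 8.86% in the vcS5 pair, slightly more in the latter. Shares of 1 sum depend on each other, so a larger share of Cd48 lowers the summed share of the others. The FPKM of Sh2d1a was 0.0596 and 0.0761 of the summed FPKM of the 6 receptors other than Cd48 in the wild-type pair, and 0.172 and 0.178 of it in the vcS5 pair. Relative to these 6 receptors, adaptor RNA was thus higher in both vcS5 libraries than in both wild-type libraries, a description without a test. This ratio carries the Sh2d1a difference already given. In a mixture of cells it does not show adaptor per receptor within a cell.

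**Figure D3:**
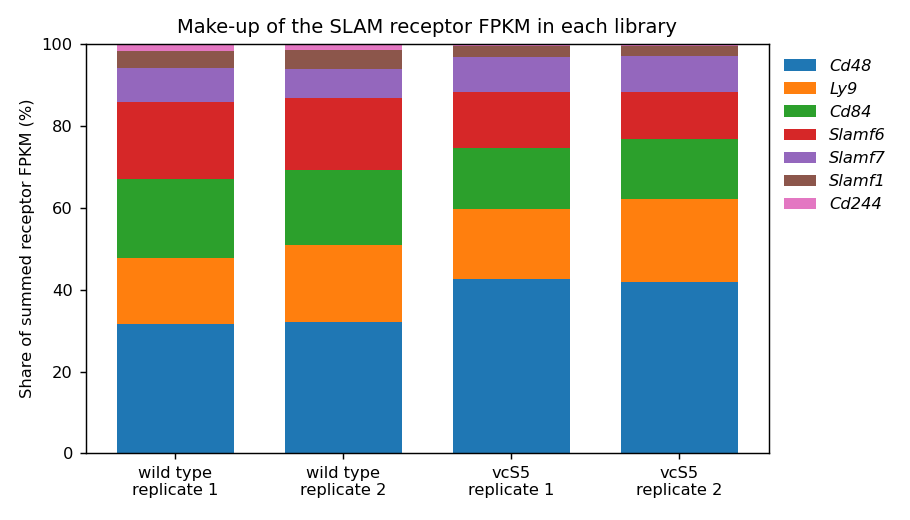
Share (%) of each of the 7 SLAM receptors in their summed FPKM, 1 bar per library. Cd48 takes 31.7% and 32.0% in the wild-type pair and 42.7% and 41.8% in the vcS5 pair, while Slamf6, Cd84, Slamf1 and Cd244 take less in vcS5.

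Within the chromosome 1 cluster, Cd244 was the single receptor called. Its neighbour Ly9 had a log2 change of 0.19 against -1.08 for Cd244, and further along Cd48 had 0.50 against -0.69 for Slamf1, the next receptor gene. Among the 29 other rows inside the cluster or within 500 kb of it, 1 was called higher and 1 lower. Over all rows 4.59% were called higher and 4.13% lower. The median log2 change of the 29 rows was -0.06. Fcer1g, the signalling chain of Fc receptors in myeloid and natural killer cells, had 129 and 104 FPKM in the wild-type pair and 48.7 and 59.5 FPKM in the vcS5 pair (a log2 change of -1.10 with an SE of 0.184, adjusted p = 0.0302 by limma). Pea15a, which encodes a death-effector domain protein that binds ERK kinases, had 15.8 and 17.0 FPKM in the wild-type pair and 30.0 and 33.9 FPKM in the vcS5 pair (a log2 change of 0.92 with an SE of 0.141, adjusted p = 0.0246 by limma). Of the 4 rows that lay inside the span without a member's symbol, 0 passed by limma and 0 by a q under 0.05 of the authors' deposited table. An unadjusted p under 0.05 was reached by 2 of them, beside 25.3% of all rows. Promoter windows of 300 bases from RefSeq (GRCm38.p6) were at hand for 6 of the 8 genes, without Ly9 and Sh2d1a. The STAT motif TTCNNNGAA, which reads the same on both strands, was in 0 of the 6 windows and in 8.30% of 32851 windows in all. So few windows cannot tell 0 from a share of 8.30%, and they hold none of Sh2d1a, so no conclusion is drawn.

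**Figure D4:**
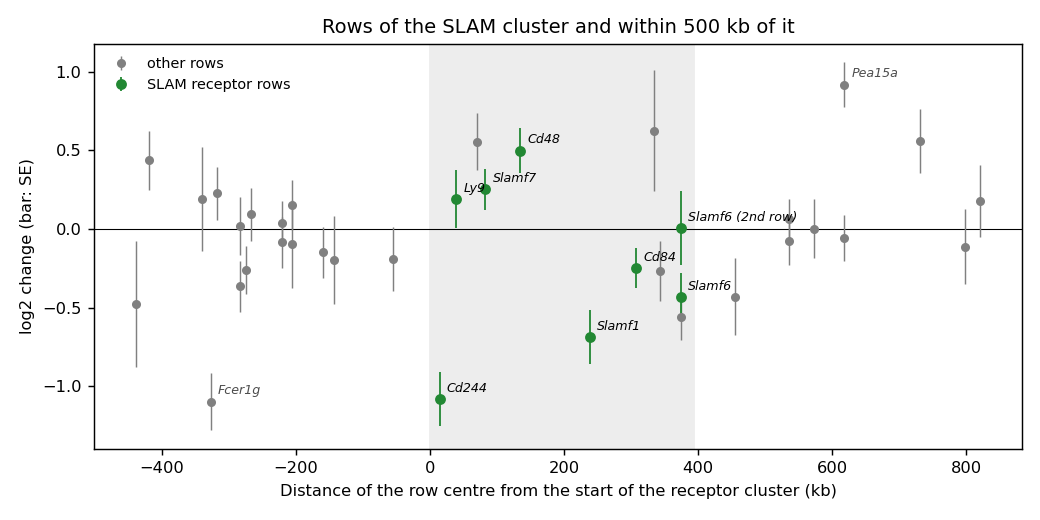
Log2 change with its SE against the distance (kb) of the row centre from the start of the receptor cluster, shaded; green points are SLAM receptor rows and grey points the other 29 rows. Cd244 (-1.08) and Cd48 (0.50) lie within the same shaded span.

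The closest relatives of the family gave no call. Of 5 genes listed, Slamf8, Slamf9, Cd2 and Sh2d1b1 were measured and 0 passed by limma. At an unadjusted p under 0.05 there were 3 of these 4, beside 25.3% of all rows. By a q under 0.05 of the authors' deposited table, 1 was higher and 1 lower, beside 5.31% and 6.14% of all rows. Cd2, a T cell adhesion receptor that also binds CD48, had 134 and 163 FPKM in the wild-type pair and 199 and 250 FPKM in the vcS5 pair (a log2 change of 0.59 with an SE of 0.192, adjusted p = 0.137 by limma). Sh2d1b1, the gene of the second adaptor EAT-2 of natural killer and myeloid cells, had 3.15 and 2.17 FPKM in the wild-type pair and 0.888 and 1.24 FPKM in the vcS5 pair. EAT-2 thus went the other way from SAP in mean level, although its change of -0.82 (SE 0.236, adjusted p = 0.108 by limma) did not pass. Slamf9 and Slamf8, receptors of myeloid cells, changed by -0.63 and -0.28 and did not pass (adjusted p = 0.152 and 0.444 by limma).

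Among 22 genes of signalling proteins that act with SLAM receptors and SAP, 4 rose and 1 fell, with a median of -0.08. Over all rows 4.59% were called higher and 4.13% lower. Prkcq, the kinase that SAP recruits in T cells, rose by 1.58 on the log2 scale (SE 0.170), from 26.7 and 33.8 to 87.2 and 97.0 FPKM. Lat, the scaffold of T cell receptor signalling, rose by 1.26 (SE 0.209), and Plcg1, the phospholipase of T cells, rose by 1.07 (SE 0.163). Fyn, the kinase that SAP brings to the receptors, was singled out after its values were seen, since the naming rule stops at 4 genes. It rose from 89.8 and 116.9 to 200 and 205 FPKM (a log2 change of 0.97 with an SE of 0.179, adjusted p = 0.0371 by limma). Plcg2, the phospholipase of B and natural killer cells, fell by 1.22 (SE 0.161), from 64.2 and 80.4 to 30.4 FPKM in each vcS5 library. Of the 5 that passed, the 4 that rose are T cell signalling genes and Lat is also in the pan T cell list.

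Genes of the SAP-dependent follicular helper and germinal centre reaction were lower or not called. Of 11 listed, 10 were measured, with 3 lower, 0 higher and a median of -0.77. The shares of all rows called, here and for the next list, were 4.13% lower and 4.59% higher. Cxcr5, the homing receptor of follicles, fell from 94.5 and 107 to 45.2 and 40.3 FPKM (a log2 change of -1.22 with an SE of 0.148). Bcl6, the master regulator of these cells, fell by 1.13 (SE 0.136), and Cd40lg, the T cell help signal to B cells, fell by 1.08 (SE 0.157). Cxcr5 and Bcl6 are expressed by B cells too, whose markers were lower in the same libraries. The part of B cells in the changes of Cxcr5 and Bcl6 was not tested. Cd40lg and Icos are also in the list of CD4 T cell markers, and the part of CD4 T cells in the change of Cd40lg was not tested. Of 6 genes listed for SAP-dependent innate-like T cells, 4 were in the table, and 1 rose while 2 fell (median -0.88). Gata3, a T cell transcription factor, rose by 1.62 (SE 0.236). Cd1d1, the lipid-presenting molecule that selects natural killer T cells, fell by 0.93 (SE 0.172), and Egr2, a factor of their development, fell by 0.98 (SE 0.160). As a presenting molecule, Cd1d1 is not itself a marker of innate-like T cells. The part of B cells in the change of Cd1d1 was not tested either.

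SLAM genes are shared between cell types whose markers moved in opposite directions in these libraries. For every marker list from here on, the shares of all rows called by limma were 4.59% higher and 4.13% lower. An unadjusted p under 0.05 was reached by 25.3% of all rows. By the authors' q under 0.05, 5.31% of all rows were higher and 6.14% lower. Of 15 pan T cell markers, Cd2, Lck and Lat also stand in the lists of relatives or signalling partners above. Of the 15, 10 were higher and 0 lower, with a median log2 change of 1.24, close to the 1.19 of Sh2d1a. Their summed level was 1071 and 1417 FPKM in the wild-type pair and 2864 and 3695 FPKM in the vcS5 pair. Of 8 CD8 T cell markers 7 were higher, with a median of 2.29 and sums of 530 and 463 against 3627 and 4042 FPKM. Of these sums Ccl5 made up 287 and 193 FPKM in the wild-type pair and 2132 and 2382 FPKM in the vcS5 pair. Cd8a and Cd8b1, the coreceptor genes, rose by 2.86 (SE 0.174) and 2.78 (SE 0.219). Of 6 CD4 T cell markers 3 were lower, with a median of -0.60 and sums of 136 and 146 against 94.6 and 80.9 FPKM. Cd40lg, which is among these 3, and Icos are also in the follicular helper list, so these lists are not independent. Of 12 B cell markers 11 were lower, with a median of -1.40 and sums of 3689 and 4454 against 1555 and 1485 FPKM. The part of these shifts in the changes of Sh2d1a, Cd48, Ly9, Slamf6, Slamf1, Cd84, Cd244 and Slamf7 was not tested.

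For Cd244, the lists to set beside it are natural killer and myeloid markers, with the T cell markers given above. Of the 8 CD8 T cell markers 7 were higher, with a median of 2.29, and of the 6 CD4 T cell markers 3 were lower. Among 9 natural killer markers 4 rose and 2 fell, with a median of 0.60 and sums of 423 and 344 in the wild-type pair against 460 and 435 FPKM in the vcS5 pair. Ncr1, the natural killer receptor NKp46, fell by 3.17 (SE 0.165). Eomes, a transcription factor that is also in the CD8 T cell list, rose by 2.20 (SE 0.178), Prf1, the pore-forming perforin, rose by 1.78 (SE 0.187) and Klrd1, a subunit of lectin receptors, rose by 1.33 (SE 0.157). Tyrobp, the signalling adaptor DAP12 and the other marker of this list that fell, was named after its values were seen and had a log2 change of -1.16 (SE 0.202). Of the sums Tyrobp made up 198 and 141 FPKM in the wild-type pair and 73.1 and 76.2 FPKM in the vcS5 pair. Klrb1c, also in the innate-like T cell list and named after its values were seen, was lower in both vcS5 libraries without passing. Its log2 change was -0.84 (SE 0.207, adjusted p = 0.0757 by limma). Over the list, groups did not overlap for 5 markers higher and 3 lower in vcS5, beside 54.4% of all rows in either direction. Prf1 and Klrd1 are expressed by activated CD8 T cells too. Of 10 neutrophil markers 1 was lower by limma, Csf3r at -1.04, with a median of -1.60. Groups did not overlap for 9 of the 10, all lower in vcS5, beside 54.4% of all rows in either direction. An unadjusted p under 0.05 by limma was reached by 7, beside 25.3% of all rows. By a q under 0.05 of the authors' deposited table, 9 of these markers were lower and 0 higher. Their sums were 6133 and 1853 FPKM in the wild-type pair and 1001 and 967 FPKM in the vcS5 pair, so wild-type replicate 1 stood far above the rest. As given above, the call of Cd244 was lost whichever library was left out. Its log2 change was -0.98 without wild-type replicate 1 and -1.18 without wild-type replicate 2. Of 11 macrophage and monocyte markers 1 was lower, Lyz2 at -1.34, with a median of -0.46. The sums of the 11 were 699 and 513 in the wild-type pair and 272 and 359 FPKM in the vcS5 pair. Of these sums Lyz2 made up 425 and 269 FPKM in the wild-type pair and 133 and 132 FPKM in the vcS5 pair. Groups did not overlap for 5 of the 11, all lower in vcS5, beside 54.4% of all rows in either direction. The part of natural killer, T and myeloid cells in the Cd244 result was not tested.

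For Slamf7 and Cd84, plasma cell, dendritic cell and platelet markers apply as well. Of 8 plasma cell markers 2 were lower, Irf4 at -1.28 and Mzb1 at -1.17, with a median of -0.57. The sums of the 8 were 1279 and 863 in the wild-type pair and 727 and 525 FPKM in the vcS5 pair. Jchain, named after its values were seen, made up 965 and 566 against 554 and 372 FPKM of these sums. It did not pass (adjusted p = 0.282 by limma). Slamf7 was higher in both vcS5 libraries without passing. Of 9 dendritic cell markers 1 was lower, with a median of -0.49 and sums of 57.3 and 56.6 against 35.0 and 38.2 FPKM. Of 6 platelet markers 4 were measured and 0 passed by limma, with 2 at an unadjusted p under 0.05 and 2 lower by a q under 0.05 of the authors' deposited table. Of 8 erythroid markers 0 passed by limma, 0 had an unadjusted p under 0.05 and 0 had a q under 0.05 of the authors' deposited table. Erythroid sums were 1056 and 1475 in the wild-type pair and 562 and 1576 FPKM in the vcS5 pair, so vcS5 replicate 1 was low. The part of these cells was not tested.

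**Figure D5:**
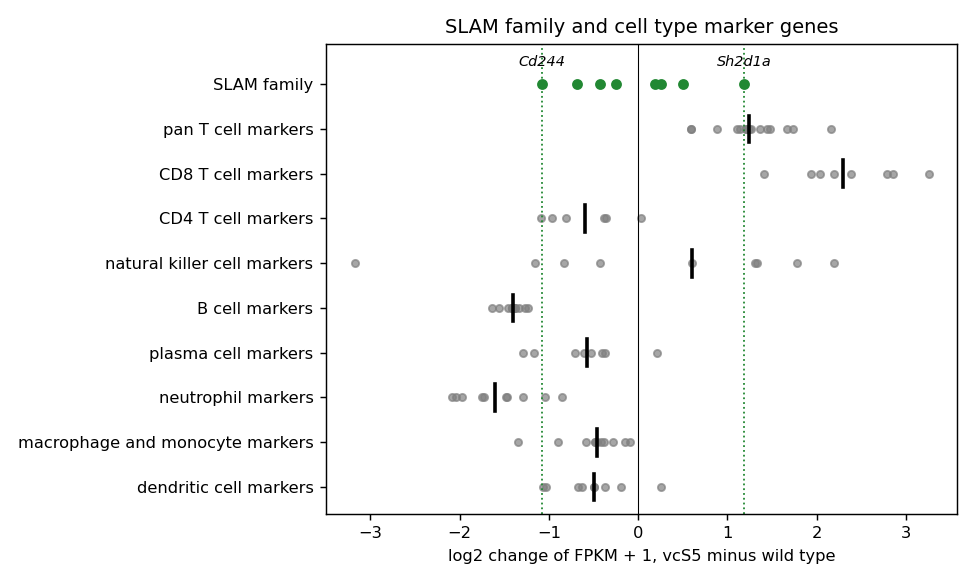
Log2 change of FPKM + 1, vcS5 minus wild type, of the 8 SLAM family genes (green, top line) and of each measured gene of 9 marker lists (grey points, black bars at the medians). The dotted line of Sh2d1a (1.19) runs by the pan T cell median (1.24), and that of Cd244 (-1.08) runs between the CD4 T cell (-0.60) and B cell (-1.40) medians.

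The rows most like each called member were found by the root mean square difference of log2 values, centred on the row mean, over the 4 libraries. For Sh2d1a they were Fam78a (0.0156), Cd226 (0.0449) and Xlr4a (0.0469), among 8465 rows compared. Cd226, an activating receptor of T and natural killer cells, had 14.8 and 19.5 FPKM in the wild-type pair and 37.5 and 42.6 FPKM in the vcS5 pair. For Cd244 they were Csf2rb (0.0323), Chchd10 (0.0453) and Nfam1 (0.0533). Csf2rb, the beta chain of the receptors for interleukin 3 and related cytokines, had 13.5 and 12.1 FPKM in the wild-type pair and 5.18 and 5.73 FPKM in the vcS5 pair. With 4 libraries many rows share such a pattern, and 63 rows lay within 0.15 of Sh2d1a and 95 within 0.15 of Cd244.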

How the data were processed

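RNA from flash-frozen spleen suspensions went into TruSeq RNA v2 libraries, which do not mark strand, per the labels' protocols, and was read as 50-base single ends, per the series design. Values were deposited as FPKM per library in 1 table that also holds, per the file headers, a group FPKM, a log2 fold change, p-values and q-values, SDs as a signal, their ratio to the mean and rank scores. The submitters' processing notes name Bowtie2 2.1.0, TopHat2 2.0.9, Cufflinks, Cuffdiff 2.1.1 and mm10; settings are not given in the sources used here. Every row has a mean FPKM of 1 or more, so the minimum of 1 removed none.

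limma (version 3.58.1, under R 4.3.3), run with its variance trend, compared vcS5 with wild type over all 14226 rows of log2(FPKM + 1), two-sided, with Benjamini-Hochberg adjustment, a threshold of 0.05, 3.17 prior and 2 residual degrees of freedom. This scale understates changes of low rows. The code was tested on simulated data. A listed gene with several rows was represented by its most abundant row. Loci were made 1-based.

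The members and gene lists were chosen with earlier results of these data known. Named genes are all members and relatives, up to 4 called genes per list by size of change (the 2 most abundant where fewer than 2 passed), and called neighbours; beyond the first 4 lists only those a member's result is set beside are printed. Alternatives were other pseudocounts, filters, scalings, no variance trend, a replicate block and each library left out; summing the Slamf6 rows was added after seeing the data.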

Additional observations from a re-analysis of the deposited data

How the results depend on the processing

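Sh2d1a stayed called as higher under every alternative that kept all 4 libraries, and Cd244 as lower under all of these but 2. Cd244 was not among the rows tested once a mean FPKM of 5 was required, which left 0 members called lower, and the replicate block gave 0 members called lower as well (Cd244 adjusted p = 0.0516 by limma), with 3 members lower at an unadjusted p under 0.05. The labels share only numbers between groups. Deviations of same-numbered libraries from their group means correlated at 0.176 over rows, and with the replicate block 579 rows were called higher and 449 lower, against 653 and 588. Leaving out 1 library in turn left 0 members called higher and 0 lower by limma in each case, with 1 to 2 higher and 1 to 3 lower at an unadjusted p under 0.05. Calls over all rows then ran from 52 to 164 higher and from 19 to 81 lower, with fewer samples in each fit. Of 59 table rows of named genes, 38 were called, 29 of these kept their call under all alternatives with 4 libraries that tested them, and 1, Ncr1, under each left-out library. No called direction reversed among these rows. Tyrobp, Klrb1c and Jchain, named after their values were seen, were not among the 59 rows. Without the variance trend Cd4 and Zbtb7b lost their calls, and with the replicate block 9 genes did, namely Cd244, Cd4, Zbtb7b, Lyz2, Siglech, Fcer1g, Gata3 (adjusted p = 0.0527 by limma), Egr2 (0.0545) and Cd1d1 (0.0673), which leaves no call in the innate-like T cell list. Absolute depth is unknown, so counting error of low rows such as Cd244 is not known.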
